A study of Homo sapiens with 3 samples.

Results

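The genes described here encode carriers that move amino acids, and a few related small molecules, across cell membranes. They were taken by name from 7 solute carrier families (SLC1, SLC3, SLC6, SLC7, SLC36, SLC38 and SLC43), by a name pattern that uses no measured value, though earlier results of these data were known when the families were chosen, and 59 of the 18345 genes in the deposited tables matched. RNA was sequenced from blood-forming cultures of H1, an established line of human embryonic stem cells, so all values come from 1 cell line. The medium held 40 ng/ml activin A plus 50 ng/ml BMP4 for the first 2 days, and 40 ng/ml VEGF plus 50 ng/ml bFGF for the next 3, while the cells are labelled day 4. CD31+CD34+ cells, called HEPs in the labels, were divided by their CD105 (endoglin) into CD105neg, CD105low and CD105high, which share this protocol and differ in no other labelled agent or genotype. The labels do not say whether the 3 came from 1 culture. The value column of the CD105neg sample is headed CD105+, but ENG, which encodes CD105, was lowest there, at 2.12 FPKM against 8.56 in CD105low and 13.8 in CD105high. Each population had 1 library, so no value below has a replicate spread, no difference could be tested, and each comparison is one between libraries. In bulk RNA of a sorted population, fewer cells that carry a transcript and less of it per cell cannot be told apart.

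Cells import amino acids for protein, nucleotide, haem and glutathione synthesis, and no single carrier takes all of them. Sodium-coupled carriers such as those of SLC38 pull small neutral amino acids in against a gradient. Exchangers such as SLC1A5 and the SLC7 light chains then swap one amino acid for another across the membrane. An SLC7 light chain reaches the cell surface only when it is joined to a heavy chain, SLC3A2 or SLC3A1. Carriers on the lysosome, such as SLC38A9, report its amino acid content to mTORC1, the kinase complex that sets growth. In red cell precursors glycine is needed in bulk for haem, and endothelial cells consume glutamine as a carbon and nitrogen source.

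Values are given as FPKM, fragments scaled to transcript length and library size, which allows levels to be set side by side between genes. The files do not name the unit, and FPKM was taken from the processing tools and the sums. Of the 59 transporter genes, 29 reached 1 FPKM in at least 1 library, 28 of them in all 3, and 9 reached 10 FPKM. Levels were uneven (see the plot of levels by population). SLC38A2, SLC1A5 and SLC3A2 held the first 3 places in every library and together made up 58.1% of the summed FPKM of the 59 genes in CD105neg, 63.0% in CD105low and 65.8% in CD105high. That sum was 445, 457 and 493 FPKM, or 0.154%, 0.161% and 0.186% of the total of each table. Without SLC38A2 it was 307, 273 and 266 FPKM, so the higher total in CD105high came from this 1 gene.

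**Figure D1:**
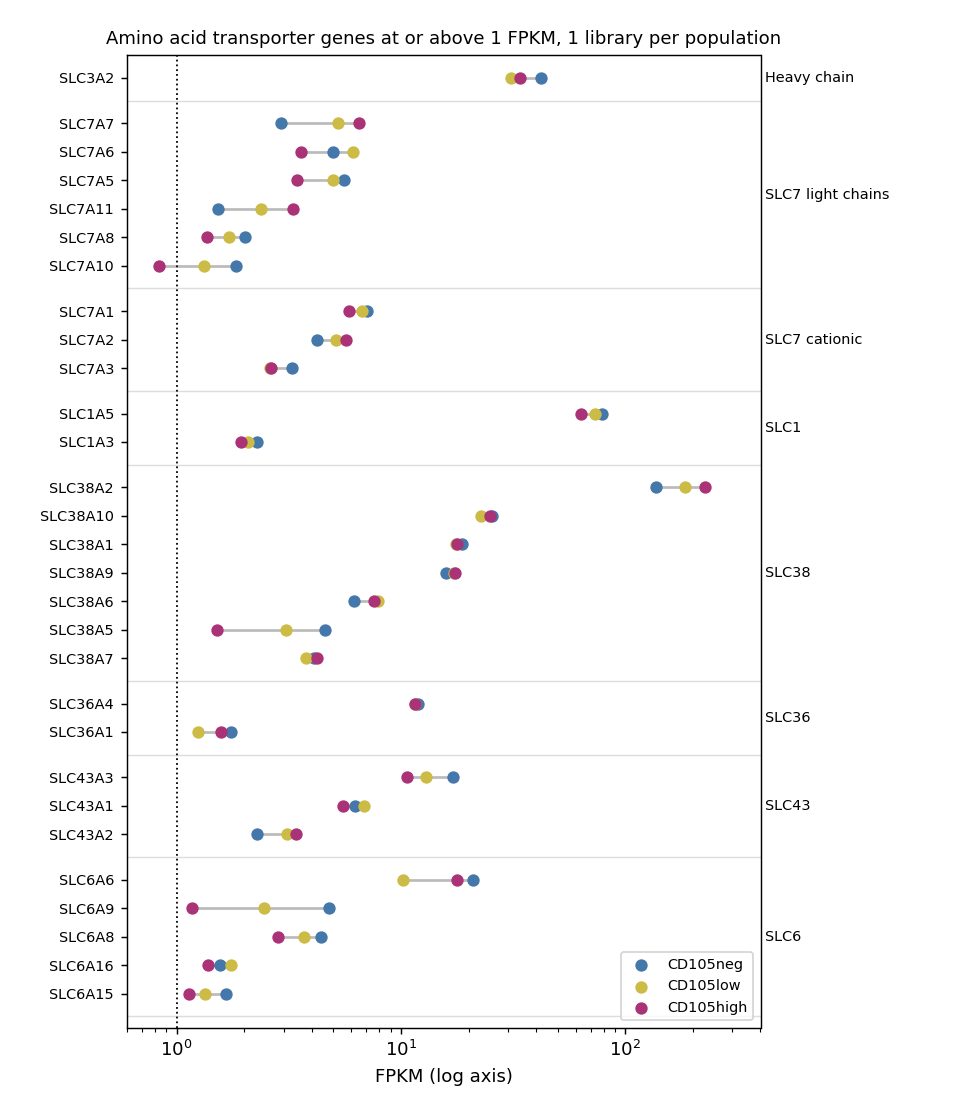
FPKM (log axis) of the 29 transporter genes that reached 1 FPKM (dotted line), ordered by role; each point is 1 library and the grey bar spans the 3. SLC38A2 lies far to the right at 137 to 227 FPKM, SLC6A9 and SLC38A5 have wide spans with CD105high lowest, and SLC36A4 and SLC38A1 have points that nearly coincide.

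Fold changes are log2 ratios of FPKM + 1, and genes at least 1.5-fold apart on that scale were counted. Against CD105neg, 3 of the 29 transporter genes stood higher in CD105high, where 5.65% of all 11343 genes at or above 1 FPKM did. They were SLC7A7, SLC7A11 and SLC38A2. Standing lower were 4 of the 29, SLC6A9, SLC38A5, SLC43A3 and SLC7A10, where 6.88% of all genes did. The other 22 lay within 1.5-fold. The median log2 fold change of the 29 was -0.16, with quartiles of -0.35 and 0.04; over all genes the median was -0.09. Among 180 genes of other SLC and SLCO families at or above 1 FPKM, 8 stood higher and 12 lower, with a median of -0.05. With 3 and 4 genes these shares are too small to set the transporter genes apart from all genes. Centred on the median gene, the split was 3 higher and 2 lower, because SLC43A3 and SLC7A10 no longer reached 1.5-fold, and with each library scaled to the same sum it was 4 higher and 3 lower among these 29. The common sum was larger than the table sums of 289229 in CD105neg, 284824 in CD105low and 265618 in CD105high. Every value therefore rose, while the pseudocount and the limit stayed at 1 and so weighed less. With this rise 7 more transporter genes passed the limit of 1, and over those 36 the split was 6 and 4. The part of equal sums in these changes was not separated from that of the smaller weight of pseudocount and limit.

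CD105low differed less from CD105neg. Only SLC7A7 stood higher among the 29 (background 4.13% of all genes), and 2 stood lower, SLC6A6 and SLC6A9 (background 2.18%), with a median of -0.10 against 0.02 over all genes. Scaled to the same sum, the split was 1 and 2 among the 29, and 2 and 2 over the 36 genes that then pass the limit. Between CD105high and CD105low, SLC6A6 stood higher in CD105high (background 1.18%) and SLC38A5, SLC6A9 and SLC7A6 lower (background 2.19%), with a median of -0.06 against -0.10 over all genes. Centring left 1 gene higher and 1 lower. Scaling to the same sum gave 1 and 3 among the 29, and 2 and 4 over the 36. The 3 comparisons share libraries, so a deviation of 1 library appears in 2 of them.

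**Figure D2:**
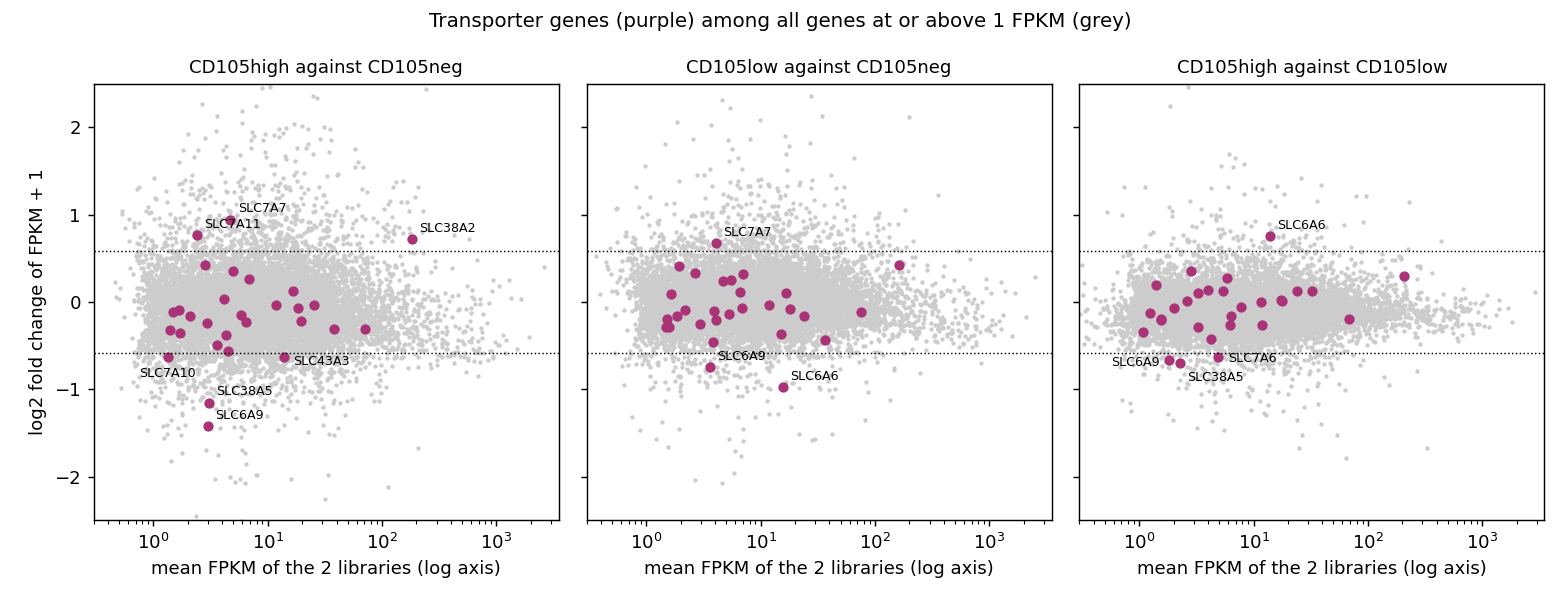
Log2 fold change of FPKM + 1 against the mean FPKM of the 2 libraries (log axis) for each pair; purple points are the 29 transporter genes, grey points all genes at or above 1 FPKM, and dotted lines mark 1.5-fold. Labels name the genes past a line, with SLC38A2 alone at high level; 19, 6 and 3 grey genes lie outside the axis.

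The heavy chain SLC3A2 (ENSG00000168003.16), also known as CD98, stood at 42.1 FPKM in CD105neg, 30.9 in CD105low and 33.9 in CD105high. It was highest in CD105neg, and all pairs lay within 1.5-fold. SLC3A1, the heavy chain of kidney and gut, was near the floor at 0.0038, 0.089 and 0.028 FPKM, and 75.7% of its sampled sequence also occurs in other genes. Its light chains SLC7A9 and SLC7A13 were also below 0.1 FPKM in all 3 libraries. The remaining 6 light chains, which pair with SLC3A2, all reached 1 FPKM.

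Among these 6 the make-up differed between the libraries while their sum hardly did, at 18.9, 21.7 and 19.1 FPKM. SLC7A7 (y+LAT1), which passes arginine and lysine out of the cell in exchange for neutral amino acids, stood at 2.91 FPKM in CD105neg, 5.24 in CD105low and 6.53 in CD105high. It was lowest in CD105neg (log2 fold change 0.94 for CD105high and 0.67 for CD105low against CD105neg). SLC7A5 (LAT1), the exchanger that brings in leucine and other large neutral amino acids, showed the opposite order at 5.59, 4.98 and 3.45 FPKM. Its log2 fold change of -0.57 between CD105high and CD105neg lay just short of 1.5-fold. SLC7A7 was thus 0.52 times as abundant as SLC7A5 in CD105neg, 1.05 times in CD105low and 1.89 times in CD105high. This ratio is taken within a library and does not depend on how libraries are scaled.

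SLC7A11 (xCT), which imports cystine for glutathione in exchange for glutamate, stood at 1.53, 2.37 and 3.31 FPKM. CD105neg was again lowest (log2 fold change 0.77 for CD105high against CD105neg). About 9.02% of its sampled sequence is shared, chiefly with the antisense gene SLC7A11-AS1, and these libraries do not tell the strands apart. SLC7A10 (Asc-1), a carrier of small neutral amino acids, ran the other way at 1.84, 1.33 and 0.83 FPKM (log2 fold change -0.63). It is the single gene of the 29 that was below 1 FPKM in a library. On the other strand 6.56% of its exon bases overlap LRP3, which stood at 2.90, 2.73 and 2.04 FPKM. SLC7A8 (LAT2), another exchanger of neutral amino acids, stood at 2.02, 1.71 and 1.36 FPKM, within 1.5-fold. SLC7A6 (y+LAT2), a relative of SLC7A7, was highest in CD105low at 6.09 FPKM against 4.97 in CD105neg and 3.59 in CD105high. Its value is uncertain, since 51.7% of its sampled sequence also occurs in other genes, chiefly SLC7A6OS, which covers 44.4% of its exon bases on the other strand and stood at 8.15, 8.60 and 7.90 FPKM.

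As shares of the light-chain sum, SLC7A7 took 15.4% in CD105neg, 24.1% in CD105low and 34.2% in CD105high. SLC7A11 took 8.13%, 10.9% and 17.3%. SLC7A5 took 29.6%, 22.9% and 18.1%, and SLC7A10 9.74%, 6.12% and 4.37%. With the uncertain SLC7A6 left out, the shares of SLC7A7 were 21.0%, 33.5% and 42.2% and those of SLC7A5 40.2%, 31.9% and 22.3%, in the same order. The level of SLC3A2 was 2.23, 1.42 and 1.78 times the summed light chains.

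**Figure D3:**
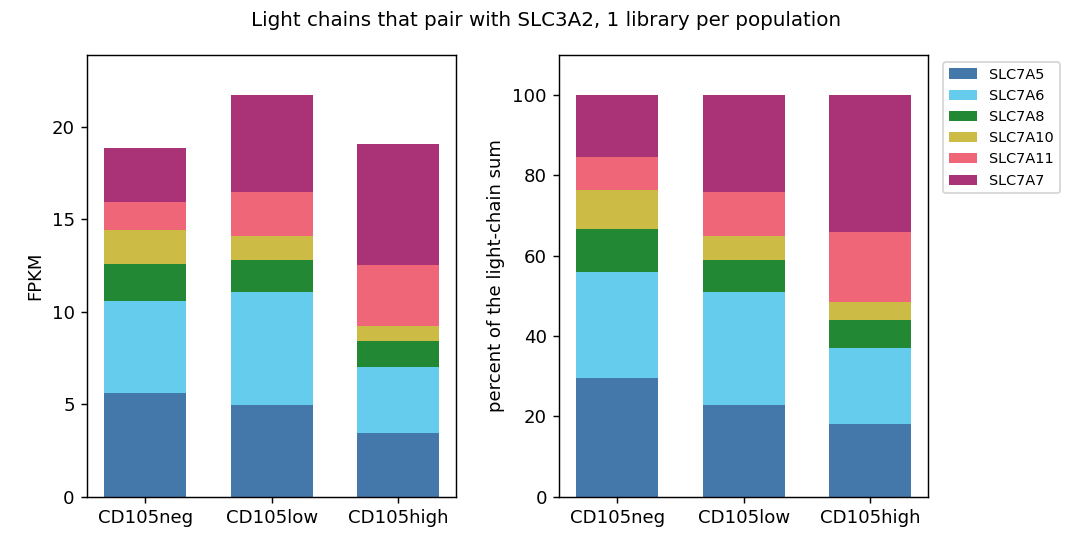
FPKM (left) and percent of their sum (right) of the 6 light chains that pair with SLC3A2, 1 library per bar. The bars at left differ little in height (18.9, 21.7 and 19.1 FPKM), whereas at right the SLC7A7 segment widens from 15.4% to 34.2% and the SLC7A5 segment narrows from 29.6% to 18.1%.

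Promoter sequence was examined for 4 short motifs, and 4 stretches, chosen after the values were seen, are shown as examples: SLC7A5, SLC7A8 and SLC38A5 hold the same E-box, and SLC1A3 holds the core of the amino acid response element. That element is the site through which amino acid shortage raises transcription of several transporter and synthesis genes. The sequences are those of RefSeq on GRCh38.p14, each 80 bases long, 5′ to 3′ along the gene, and none overlaps an annotated exon. Capitals mark the E-box CACGTG or the response element core TGATGNAA. The stretches lie at chr16:87869598-87869677 (minus strand) for SLC7A5, chr14:23154483-23154562 (minus strand) for SLC7A8, chrX:48470427-48470506 (minus strand) for SLC38A5 and chr5:36596338-36596417 (plus strand) for SLC1A3.
SLC7A5: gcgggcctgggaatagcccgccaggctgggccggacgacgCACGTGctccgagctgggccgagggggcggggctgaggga
SLC7A8: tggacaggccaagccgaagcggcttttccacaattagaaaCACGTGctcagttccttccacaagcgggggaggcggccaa
SLC38A5: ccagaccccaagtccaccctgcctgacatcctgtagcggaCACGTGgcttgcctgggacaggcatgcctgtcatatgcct
SLC1A3: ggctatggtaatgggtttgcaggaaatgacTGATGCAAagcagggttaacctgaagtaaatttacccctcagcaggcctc

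The E-box begins 130 bases before the annotated start in SLC7A5, 129 in SLC7A8 and 206 in SLC38A5. Of the 29 transporter genes, 23 had a RefSeq promoter entry, with 43 windows of 250 bases before a start. SLC43A3, SLC6A15, SLC6A6, SLC7A11, SLC7A2 and SLC7A3 had no entry and were not searched for any motif. Sequence outside the windows, such as introns, was not searched for any gene. CACGTG, which reads the same on both strands, was found in 8 of these windows (18.6%), 1 for each of 8 genes, against 8.14% of the 13015 windows of genes at or above 1 FPKM and 6.34% of all windows. The other 5 genes were SLC1A5, SLC36A1, SLC43A1, SLC6A16 and SLC7A7, of which SLC7A7 had its highest value in CD105high. The lowest value lay in CD105high for 6 of the 8 genes. It did so for 12 of the 23 with a promoter entry and for 14 of the 29, sets that include the 8. Of the 8 only SLC38A5 and SLC7A7 were 1.5-fold apart in any pair. The E-box share rests on 8 of 43 windows with several motifs searched, was not tested, and does not set the transporter genes apart. A link between the E-box and the values was not tested either. TGATGNAA, searched on both strands, was found in SLC1A3 and SLC1A5, in 2 of the 43 windows. That is 4.65%, against 1.59% of the windows of genes at or above 1 FPKM and 3.14% of all windows. With 2 windows this share is too small to set the transporter genes apart. AGATAA, a motif of erythroid promoters, was found in SLC1A3 and SLC36A4 (4.65% against 5.33% and 9.17%). TGACNNNGC, the core of the antioxidant response element, was found in 6 windows (13.95% against 11.9% and 10.9%), among them 1 each of SLC3A2 and SLC7A7. These are matches of letters, and which start each gene uses in these cells is not shown by gene-level values.

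Among the cationic amino acid carriers of SLC7, which work without a heavy chain, 3 of 5 reached 1 FPKM. SLC7A1 (CAT1), the general importer of arginine and lysine, stood at 7.09, 6.73 and 5.90 FPKM, and SLC7A3 at 3.29, 2.60 and 2.63 FPKM. SLC7A2 stood at 4.23, 5.15 and 5.69 FPKM, with its lowest value in CD105neg. No pair of these was 1.5-fold apart, and their sum was 14.6, 14.5 and 14.2 FPKM. Within that sum the share of SLC7A2 was 28.96% in CD105neg, 35.6% in CD105low and 40.0% in CD105high. SLC7A4 and SLC7A14 stayed below 0.1 FPKM.

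The SLC1 family holds the glutamate transporters of the nervous system and 2 exchangers of neutral amino acids. SLC1A5 (ASCT2; ENSG00000105281.12), through which proliferating cells take up glutamine, stood at 78.7 FPKM in CD105neg, 72.9 in CD105low and 63.6 in CD105high. The order ran against CD105, but all pairs lay within 1.5-fold (log2 fold change -0.30 for CD105high against CD105neg). On the other strand 23.4% of its exon bases overlap AC008622.2. SLC1A3 (GLAST), a glutamate importer, stood at 2.29, 2.07 and 1.93 FPKM. The other neutral exchanger, SLC1A4, reached 0.90 FPKM at most.

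SLC38, the sodium-coupled carriers of small neutral amino acids, made up the largest part of the transporter RNA: 213 FPKM in CD105neg, 257 in CD105low and 301 in CD105high, or 48.0%, 56.3% and 61.0% of the summed transporter genes. SLC38A2 (SNAT2; ENSG00000134294.13), a system A carrier of alanine, serine, proline and glutamine that cells raise when amino acids run short, stood at 137, 184 and 227 FPKM. It was the 289th most abundant gene in the table of CD105neg, the 205th in that of CD105low and the 154th in that of CD105high. Against CD105neg the log2 fold change was 0.72 for CD105high and 0.42 for CD105low, and between those 2 it was 0.30. None of its sampled sequence occurs in another gene and its exons overlap none. SLC38A1 (SNAT1), the other abundant system A carrier, hardly differed, at 18.7, 17.6 and 17.8 FPKM, so SLC38A2 was 7.35, 10.5 and 12.7 times as abundant as SLC38A1. SLC38A4, the remaining system A carrier, stayed below 1 FPKM.

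SLC38A5 (SNAT5), a system N carrier of glutamine, asparagine, histidine and glycine that moves protons in the opposite direction, stood at 4.58 FPKM in CD105neg, 3.06 in CD105low and 1.51 in CD105high. The 3 values step down with CD105 (log2 fold change -1.15 for CD105high against CD105neg and -0.69 for CD105high against CD105low). SLC38A9, the lysosomal arginine sensor upstream of mTORC1, stood at 15.9, 17.1 and 17.5 FPKM. SLC38A10 stood at 25.5, 22.8 and 24.9 FPKM, SLC38A6 at 6.15, 7.93 and 7.57 FPKM, and SLC38A7, which carries glutamine and asparagine out of the lysosome, at 4.11, 3.76 and 4.24 FPKM. No pair of these 4 was 1.5-fold apart.

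**Figure D4:**
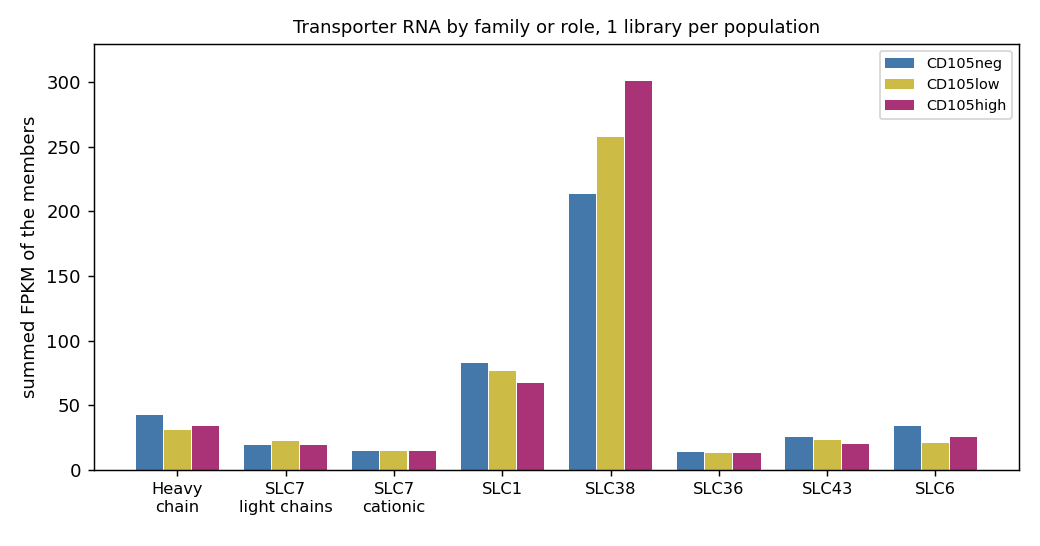
Summed FPKM of all 59 transporter genes by family or role, 1 library per bar. The SLC38 bars are the tallest and step up from 213 to 301 FPKM, while the SLC1 bars step down from 82.5 to 66.9 FPKM and the cationic SLC7 bars lie between 14.2 and 14.7 FPKM.

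In SLC36, the proton-coupled carriers, SLC36A4 stood at 11.9, 11.6 and 11.6 FPKM and SLC36A1, which exports amino acids from lysosomes, at 1.74, 1.25 and 1.58 FPKM. Neither was 1.5-fold apart in any pair. All 3 members of SLC43 were present. SLC43A3, a relative of the system L carriers that is now known to move purine nucleobases, stood at 17.0, 12.9 and 10.6 FPKM (log2 fold change -0.63 for CD105high against CD105neg). Its value is uncertain, since 31.4% of its sampled sequence is shared, mainly with AP000781.2 on the same strand, which stood at 2.69, 1.06 and 1.41 FPKM. SLC43A1 (LAT3), a carrier of branched-chain amino acids, stood at 6.25, 6.83 and 5.53 FPKM and its relative SLC43A2 (LAT4) at 2.27, 3.11 and 3.40 FPKM, both within 1.5-fold.

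SLC6 holds 19 of the 59 genes, among them carriers of neurotransmitters, and 5 of the 19 reached 1 FPKM. SLC6A9 (GlyT1; ENSG00000196517.11), the glycine transporter that feeds haem synthesis in red cell precursors, stood at 4.80 FPKM in CD105neg, 2.45 in CD105low and 1.17 in CD105high. It had the lowest log2 fold change of the 29 for CD105high against CD105neg, at -1.42, with -0.75 and -0.67 in the other pairs. The ratio of the plain values was 4.11 between CD105neg and CD105high. On the other strand 7.83% of the exon bases of SLC6A9 overlap CCDC24, which stood at 4.96, 3.79 and 2.59 FPKM, in the same order. SLC6A6 (TauT), the taurine transporter, followed no order of CD105, at 20.9 FPKM in CD105neg, 10.2 in CD105low and 17.8 in CD105high. Its low value in CD105low put it past 1.5-fold in both pairs that include that library (log2 fold change -0.97 against CD105neg, 0.75 for CD105high against CD105low), and rests on that single library. SLC6A8, the creatine transporter, stood at 4.40, 3.68 and 2.84 FPKM, within 1.5-fold, and shares 15.8% of its sampled sequence. SLC6A15, a carrier of neutral amino acids, stood at 1.67, 1.34 and 1.14 FPKM and SLC6A16, whose substrate is not known, at 1.57, 1.74 and 1.38 FPKM.

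The other 30 transporter genes stayed below 1 FPKM. SLC6A3, SLC6A14, SLC6A18 and SLC36A3 were listed at 0 in all 3 libraries. A further 17 were above 0 in at least 1 library but below 0.1 FPKM, among them the serotonin transporter SLC6A4 and the glial glutamate transporter SLC1A2. The last 9 peaked between 0.15 and 0.90 FPKM, among them SLC1A1, SLC1A4, SLC1A6, SLC38A3, SLC38A4, SLC6A2, SLC6A12 and SLC6A13. SLC6A13 stood at 0.064, 0.24 and 0.33 FPKM. The genes nearest the 1 FPKM limit were SLC1A4 at 0.90 below it and SLC6A15, at a peak of 1.67, above it.

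Genes that use or sense amino acids were counted by the same 1.5-fold rule for CD105high against CD105neg. Of all genes, 5.65% stood higher and 6.88% lower, as given above. Counts as small as those of the lists that follow do not set a list apart from all genes. In a list of 26 genes of the response to amino acid shortage, 5 are not analysed here and 18 of the other 21 reached 1 FPKM, none stood higher and 2 lower (median -0.24). They were GDF15, a stress-induced cytokine, at 43.1, 27.7 and 22.8 FPKM, and CBS, which makes cystathionine from homocysteine, at 36.2, 29.9 and 23.0 FPKM. PCK2, the mitochondrial PEP carboxykinase, had the next largest difference, at 10.6, 13.3 and 15.5 FPKM. In the list of mTORC1 and its amino acid sensors, all 34 genes with a value reached 1 FPKM, none stood higher and 3 lower (median -0.04). These were NPRL2, a subunit of the inhibitory GATOR complex, at 10.1, 6.73 and 4.99 FPKM, SEH1L, a subunit of its counterpart and of the nuclear pore, at 15.4, 11.2 and 8.58 FPKM, and the Rag GTPase gene RRAGD at 1.94, 1.21 and 0.82 FPKM.

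In the list of glutamine and arginine metabolism, 22 of 27 genes reached 1 FPKM, none stood higher and 3 lower (median -0.31). ODC1, which turns ornithine into the polyamine putrescine, stood at 45.01, 24.3 and 16.4 FPKM. GLUL, glutamine synthetase, stood at 109 FPKM in CD105neg, 57.6 in CD105low and 51.8 in CD105high. The proline oxidase gene PRODH stood at 3.32, 2.13 and 1.67 FPKM. For GLUL the CD105neg library stood apart from the other two, as its log2 fold changes of -1.06 and -0.91 against that library and of -0.15 between the others show. Among carriers of amino acids outside the 7 families, 15 of 21 reached 1 FPKM, none stood higher and 1 lower (median -0.08). That gene was SLC16A10, the carrier of aromatic amino acids, at 3.02, 1.73 and 1.68 FPKM. SLC25A38, which brings glycine into mitochondria for haem, stood at 10.07, 7.98 and 6.92 FPKM, and SLC25A22, a mitochondrial glutamate carrier, at 3.96, 3.27 and 2.63 FPKM, both within 1.5-fold.

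The cells' identity was checked on marker genes. All 12 endothelial markers reached 1 FPKM. ENG belongs to this list, and its difference follows from the sort on CD105. Of the other 11, 9 stood higher in CD105high than in CD105neg. CLDN5 and EGFL7 lay within 1.5-fold, at log2 fold changes of 0.29 and -0.08, and EGFL7 was lowest in CD105high, at 558, 630 and 528 FPKM. The sum of the 11 was 1287, 1728 and 1768 FPKM, in the direction of SLC7A7, SLC7A11 and SLC38A2. Of 14 erythroid and megakaryocyte markers, 9 reached 1 FPKM and all 9 stood lower in CD105high. The sum over the 14 was 70.9, 26.5 and 13.2 FPKM, in the direction of SLC6A9, SLC38A5, SLC43A3 and SLC7A10. Of the mesenchymal and mural markers 4 of 7 stood lower in CD105high, and the list summed to 268, 259 and 209 FPKM. The others, ACTA2, PDGFRA and RGS5, lay within 1.5-fold, at log2 fold changes of 0.23, 0.16 and -0.03. Pluripotency markers had 1 of 6 lower and a sum of 103, 94.3 and 84.1 FPKM. Leukocyte markers summed to at most 5.47 FPKM, with MPO and CD3E listed at 0. Of the 2 that reached 1 FPKM, SPN stood lower in CD105high, at 3.42, 2.55 and 1.19 FPKM. LYZ lay within 1.5-fold, at 1.41, 2.54 and 2.35 FPKM. The sums of the mesenchymal, pluripotency and leukocyte lists were also lowest in CD105high, as were SLC6A9, SLC38A5, SLC43A3 and SLC7A10. The part of any of these cells in the differences of the transporter genes was not tested. From the spacing of the lowest values, 1 FPKM over 1 kb of transcript amounts to 76.9, 84.7 and 80.0 of the smallest steps in the 3 libraries, an approximate figure since 36.5%, 35.4% and 32.8% of the low values tested lay on such steps.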

How the data were processed

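RNA-seq of 3 libraries was used, 1 per population, grouped by sample title. Per the labels' protocols, TruSeq RNA kits were used on 2 ug of total RNA, a preparation that does not mark strand. BWA, Bowtie, RSEM and the build hg19 are listed, with no roles or versions, in the submitters' processing notes. Annotation, filters and the division of shared reads are not given here. The deposited values name no unit and were treated as FPKM made by the authors; TPM of a part of the genes cannot be told from it. The value column of the CD105neg library has a name that reads as CD105 positive; the title was followed. Log2 fold changes used a pseudocount of 1, which understates changes of low genes, on the deposited scale (python 3.11.15, pandas 2.3.3). Members that reached 1 FPKM in any library were counted when 1.5-fold apart, and each is named. Of the pathway lists, the genes named are up to 3 with the largest difference. Shared sequence was the share of 50-base pieces, taken every 40 bases from GENCODE 29 transcripts, found in another gene on either strand. Step spacing used single-transcript genes with a tolerance of 0.04 steps. Code was tested on simulated data. Members and lists were chosen with earlier results of these data known. With 1 library per group, no test, error or interval could be computed. Some genes are not analysed or not reported here.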

Additional observations from a re-analysis of the deposited data

How the results depend on the processing

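Of 8 other settings, these moved the counts of transporter genes at least 1.5-fold apart by more than 1.5 times, and the cause was not tested beyond what each setting does. A pseudocount of 5 left 1 gene higher (SLC38A2) and 1 lower (SLC6A9) in CD105high against CD105neg, 0 higher and 1 lower in CD105low against CD105neg, and 0 lower in CD105high against CD105low. Keeping the 9 genes at or above 10 FPKM gave 1 higher (SLC38A2) and 1 lower (SLC43A3), then 0 higher and 1 lower, then 0 lower, in the same pairs. A 2-fold limit left 0 higher and 2 lower (SLC38A5 and SLC6A9) in CD105high against CD105neg, and 0 either way in the other pairs. Centring on the median gene left 2 lower in CD105high against CD105neg and 1 lower against CD105low. Scaling each library to the same sum moved the median gene of the first pair from -0.09 to 0.02. That sum was larger than the sum of any table, so scaling also raised every value against the fixed pseudocount and limit of 1. Over the 36 genes that then reach the limit, 6 were higher in CD105high than in CD105neg. Of these 36, 2 were higher in CD105low than in CD105neg and 2 higher in CD105high than in CD105low. Over the same 29 genes, a count chosen after seeing the data, all 6 counts stayed within 1.5 times. A pseudocount of 0.1 gave 2 higher in CD105low than in CD105neg. Without the members that share sequence, or with no filter on low values, all 6 counts stayed within 1.5 times. No gene counted as apart changed direction in any rescaling or pseudocount. Leaving out replicates was not possible with 1 library per group, and the number of fragments behind a value is only approximate.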
